A study of Homo sapiens with 12 samples.

Results

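The 43 genes described here encode the proteins that take a cell from G1 into S phase and copy its DNA. They were listed by name as a module, with no measured value in the rule but with earlier results of these data known, and were sorted into 9 steps of replication: licensing, the MCM helicase, CDC45 and GINS, polymerases and primase, the sliding clamp and its loaders, single-strand binding with flap removal and ligation, nucleotide supply, G1/S control, and checkpoint with histone supply and chromatin assembly. All 43 were found among the 78930 genes of the count table, and all 43 were among the 24064 genes with enough counts to be tested. RNA was sequenced from OCI-AML3, an established human acute myeloid leukaemia line that carries NPM1c, the mutant nucleophosmin that sits in the cytoplasm. The cells carry a degron on endogenous NPM1c, so that dTAG-13, a small molecule that brings tagged proteins to the proteasome, removes the mutant protein. There were 12 libraries in 4 groups of 3: dTAG-13 with lentiviral full-length NPM1c (dTAG FL-NPM1c), dTAG-13 with a form named only by its label, dTAG C-body null, dTAG-13 with mCherry alone (dTAG mCherry), and a DMSO group titled NTC (NTC DMSO). Treated cells received dTAG-13 at 500 nM 48 h after transduction, and mCherry-positive cells were sorted 24 h later. The titles put the NTC group in DMSO while its treatment field reads dTAG, its construct is not named, and what NTC stands for is not given. Separate cultures are not stated for the replicates, so each p-value here reflects only how much these libraries vary, which may be technical variation.

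Replication starts with licensing. The origin recognition complex, CDC6 and CDT1 load the MCM hexamer onto DNA in G1, and CDC45 and GINS then join the hexamer to form the active helicase. Primase and polymerases alpha, delta and epsilon copy the strands, PCNA holds the polymerases on the template, and FEN1 and LIG1 finish the lagging strand. Most of these genes are known targets of E2F factors, which the RB family keeps silent until cyclin E and CDK2 act. In myeloid leukaemia cells the module is known to be high while cells proliferate and low after they mature.

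The E2F sites of these promoters are the sequence feature that the genes are best known for sharing. RefSeq promoters, from 250 bases before to 50 bases after the start on GRCh38.p14, were found for 37 of the 43 genes. MCM4, MCM5, GINS4, DSCC1, RPA2 and CCNE2 had none. On either strand, TTTNGCGC was found in 14 promoters (37.8%, against 1.83% of 27305 promoters), TTTCCCGC in 11 (29.7%, against 1.66%) and GGCGGGAA in 11 (29.7%, against 3.18%). The last overlaps the reverse complement of TTTCCCGC, and at least 1 of the 3 forms was found in 27 promoters (73%, against 5.68%). CCAAT was found in 20 (54.1%, against 35.7%), GGGCGG in 28 (75.7%, against 44.6%) and TTTGAA in 1 (2.7%, against 15.4%). These matches are letters in a window and say nothing of whether a factor binds there.

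Promoters of 5 genes are printed 5′ to 3′, with matches to the 3 E2F forms in capitals: CDC6 (chr17:40287629-40287928, plus strand), the member with the largest fall in dTAG mCherry, E2F1 (chr20:33686336-33686635, minus strand), the factor itself, MCM7 (chr7:100101348-100101647, minus strand) and CDT1 (chr16:88803539-88803838, plus strand), the genes with the smallest adjusted p and the largest difference in dTAG FL-NPM1c against dTAG mCherry, and PCNA (chr20:5126573-5126872, minus strand), 1 of 2 members that did not pass in dTAG mCherry against NTC DMSO.
CDC6: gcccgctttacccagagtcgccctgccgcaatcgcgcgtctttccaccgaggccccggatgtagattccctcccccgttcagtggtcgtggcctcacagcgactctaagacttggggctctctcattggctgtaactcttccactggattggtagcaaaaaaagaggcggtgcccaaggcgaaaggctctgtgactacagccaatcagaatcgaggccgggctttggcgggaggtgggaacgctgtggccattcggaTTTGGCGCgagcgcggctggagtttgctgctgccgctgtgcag
E2F1: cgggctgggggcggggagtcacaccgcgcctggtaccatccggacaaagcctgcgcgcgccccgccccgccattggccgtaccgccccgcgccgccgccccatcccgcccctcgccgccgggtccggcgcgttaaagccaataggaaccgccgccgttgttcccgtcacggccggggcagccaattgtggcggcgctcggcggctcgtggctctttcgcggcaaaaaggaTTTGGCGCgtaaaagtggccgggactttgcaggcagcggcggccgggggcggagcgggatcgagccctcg
MCM7: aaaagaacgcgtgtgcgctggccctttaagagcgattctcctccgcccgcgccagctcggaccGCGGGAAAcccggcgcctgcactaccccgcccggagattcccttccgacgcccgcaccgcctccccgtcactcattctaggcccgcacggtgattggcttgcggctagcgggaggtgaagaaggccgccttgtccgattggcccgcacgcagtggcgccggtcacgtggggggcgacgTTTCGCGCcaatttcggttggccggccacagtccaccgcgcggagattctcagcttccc
CDT1: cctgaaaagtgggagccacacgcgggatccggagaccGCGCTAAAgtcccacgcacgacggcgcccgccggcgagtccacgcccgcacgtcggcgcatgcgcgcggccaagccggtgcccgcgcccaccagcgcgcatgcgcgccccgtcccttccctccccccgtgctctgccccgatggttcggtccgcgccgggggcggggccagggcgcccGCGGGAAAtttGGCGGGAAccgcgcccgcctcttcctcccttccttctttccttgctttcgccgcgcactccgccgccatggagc
PCNA: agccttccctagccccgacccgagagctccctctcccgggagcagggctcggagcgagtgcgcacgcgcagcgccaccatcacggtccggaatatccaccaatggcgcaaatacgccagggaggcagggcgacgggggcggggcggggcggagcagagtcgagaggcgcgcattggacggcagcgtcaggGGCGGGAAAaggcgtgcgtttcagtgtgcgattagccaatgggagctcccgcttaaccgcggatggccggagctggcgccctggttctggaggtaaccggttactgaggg
CDC6, E2F1 and MCM7 each hold a TTTNGCGC match close to the start. CDT1 holds 3 matches, and the 2 in PCNA overlap as 1 run.

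Library totals ran from 30519165 to 59925564 counts, and levels are given in CPM, counts per 1e+06 counts of the TMM-scaled library. Across the 20621 tested genes with a transcript sequence, libraries of 1 group differed along transcript GC. Pearson's r between GC and the log2 difference was 0.55 and 0.60 for NTC DMSO replicate 3 minus replicates 1 and 2. It was -0.38 and -0.67 for dTAG mCherry replicates 1 and 3 minus replicate 2. For replicate 3 minus replicate 1 it was 0.46 in dTAG C-body null and -0.33 in dTAG FL-NPM1c. Transcript GC of the 43 genes ran from 36.9 to 65.0% (median 48.5%), so this axis crosses the module. The share of mitochondrial counts was 7.32 to 9.63% in dTAG mCherry libraries and 6.83 to 7.63% in the other 9. NPM1 itself, in which endogenous and delivered transcripts cannot be told apart, had 1662, 1608 and 1684 CPM in dTAG FL-NPM1c, 1931, 1937 and 1897 CPM in dTAG C-body null, 1310, 1059 and 1387 CPM in dTAG mCherry and 1515, 1477 and 1296 CPM in NTC DMSO. The degron acts on the protein, so these counts do not check its loss. Of 6 myeloid leukaemia markers 5 were detected throughout and KIT was at 0, as were CD3D, CD3E, CD3G and CD2 of T cells, HBB and GP9 of erythroid cells and platelets, and EPCAM of epithelium. The B and plasma cell list of 5 genes summed to 5.67 to 6.43 CPM in dTAG FL-NPM1c, 1.48 to 2.1 CPM in dTAG C-body null, 1.84 to 2.12 CPM in dTAG mCherry and 2.8 to 3.25 CPM in NTC DMSO. Nearly all of it was SDC1, its 1 tested gene, which was 1.65 higher on the log2 scale in dTAG FL-NPM1c than in dTAG mCherry (edgeR, adjusted p = 1.2e-06), with MS4A1 and JCHAIN at 0 in every group but dTAG FL-NPM1c; its part in the results was not tested. The epithelial and fibroblast list of 6 genes summed to 629 to 719 CPM in dTAG FL-NPM1c, 454.5 to 553 CPM in dTAG C-body null, 449 to 559 CPM in dTAG mCherry and 59.99 to 67.1 CPM in NTC DMSO, with 2 of the 6 (FN1 and COL1A2) counted highly enough to test.

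Summed over the 43 genes, the level was lowest with mCherry alone and partly higher with full-length NPM1c. The sum averaged 4485 ± 15.9 CPM in dTAG FL-NPM1c, 4038 ± 6.25 CPM in dTAG C-body null, 3989 ± 27.4 CPM in dTAG mCherry and 5866 ± 22.1 CPM in NTC DMSO (SD, n = 3 each). These equal 76.5%, 68.8% and 68.0% of the NTC DMSO sum for dTAG FL-NPM1c, dTAG C-body null and dTAG mCherry. A sum gives most weight to the genes with the most counts. Gene by gene, the median share of the NTC DMSO mean was 73.2%, 68.8% and 68.1% in the same order. The 4 groups did not overlap, although dTAG C-body null (4031 to 4042 CPM) and dTAG mCherry (3958 to 4007 CPM) lay close. NTC DMSO had the highest mean for 42 of 43 genes. The exception was CDT1, which was highest in dTAG FL-NPM1c. The lowest mean was in dTAG FL-NPM1c for 5 genes, in dTAG C-body null for 17 and in dTAG mCherry for 21. In these bulk libraries, fewer cells in S phase and less RNA per cell cannot be told apart.

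Against NTC DMSO, most of the module fell in each of the 3 dTAG groups. A gene is called here when edgeR's quasi-likelihood test gives a Benjamini-Hochberg adjusted p under 0.05 over all 24064 genes. In dTAG mCherry 41 of 43 genes fell and 0 rose (9.69% of all genes tested fell and 12.9% rose), with a median log2 fold change of -0.55 and a range of -0.78 to -0.26, beside a median of -0.002 over all genes. In dTAG FL-NPM1c 35 of 43 fell and 0 rose (13.3% of all genes fell and 14.6% rose), with a median of -0.45, beside 0.02 over all genes. With an offset for transcript GC, described with the add-back comparisons, 42 of 43 fell in dTAG FL-NPM1c (16% of all genes fell in that fit), all but CDT1 (-0.16, adjusted p = 0.06), so that MCM2, MCM5, MCM7, POLD1, POLE, LIG1 and TK1 also passed. In dTAG C-body null 41 of 43 fell and 0 rose (12.4% of all genes fell and 14.1% rose), with a median of -0.54, beside -0.001. These 3 comparisons share the NTC DMSO libraries, and 34 genes fell in all of them. All 3 libraries lay below all 3 of NTC DMSO for 38 genes in dTAG FL-NPM1c (20.3% of all genes did so), 43 in dTAG C-body null (19.3%) and 41 in dTAG mCherry (14.3%). Along with the fall, a list of 12 monocyte and macrophage markers summed to 3267 to 3483 CPM in dTAG FL-NPM1c, 4830 to 5033 CPM in dTAG C-body null, 3671 to 4073 CPM in dTAG mCherry and 555 to 590.1 CPM in NTC DMSO, with none of the 12 at 0 in any group. Against NTC DMSO all 12 were called higher in dTAG mCherry and in dTAG C-body null. In dTAG FL-NPM1c 10 were called higher and 1 lower. The part of this list in the result was not tested.

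**Figure D1:**
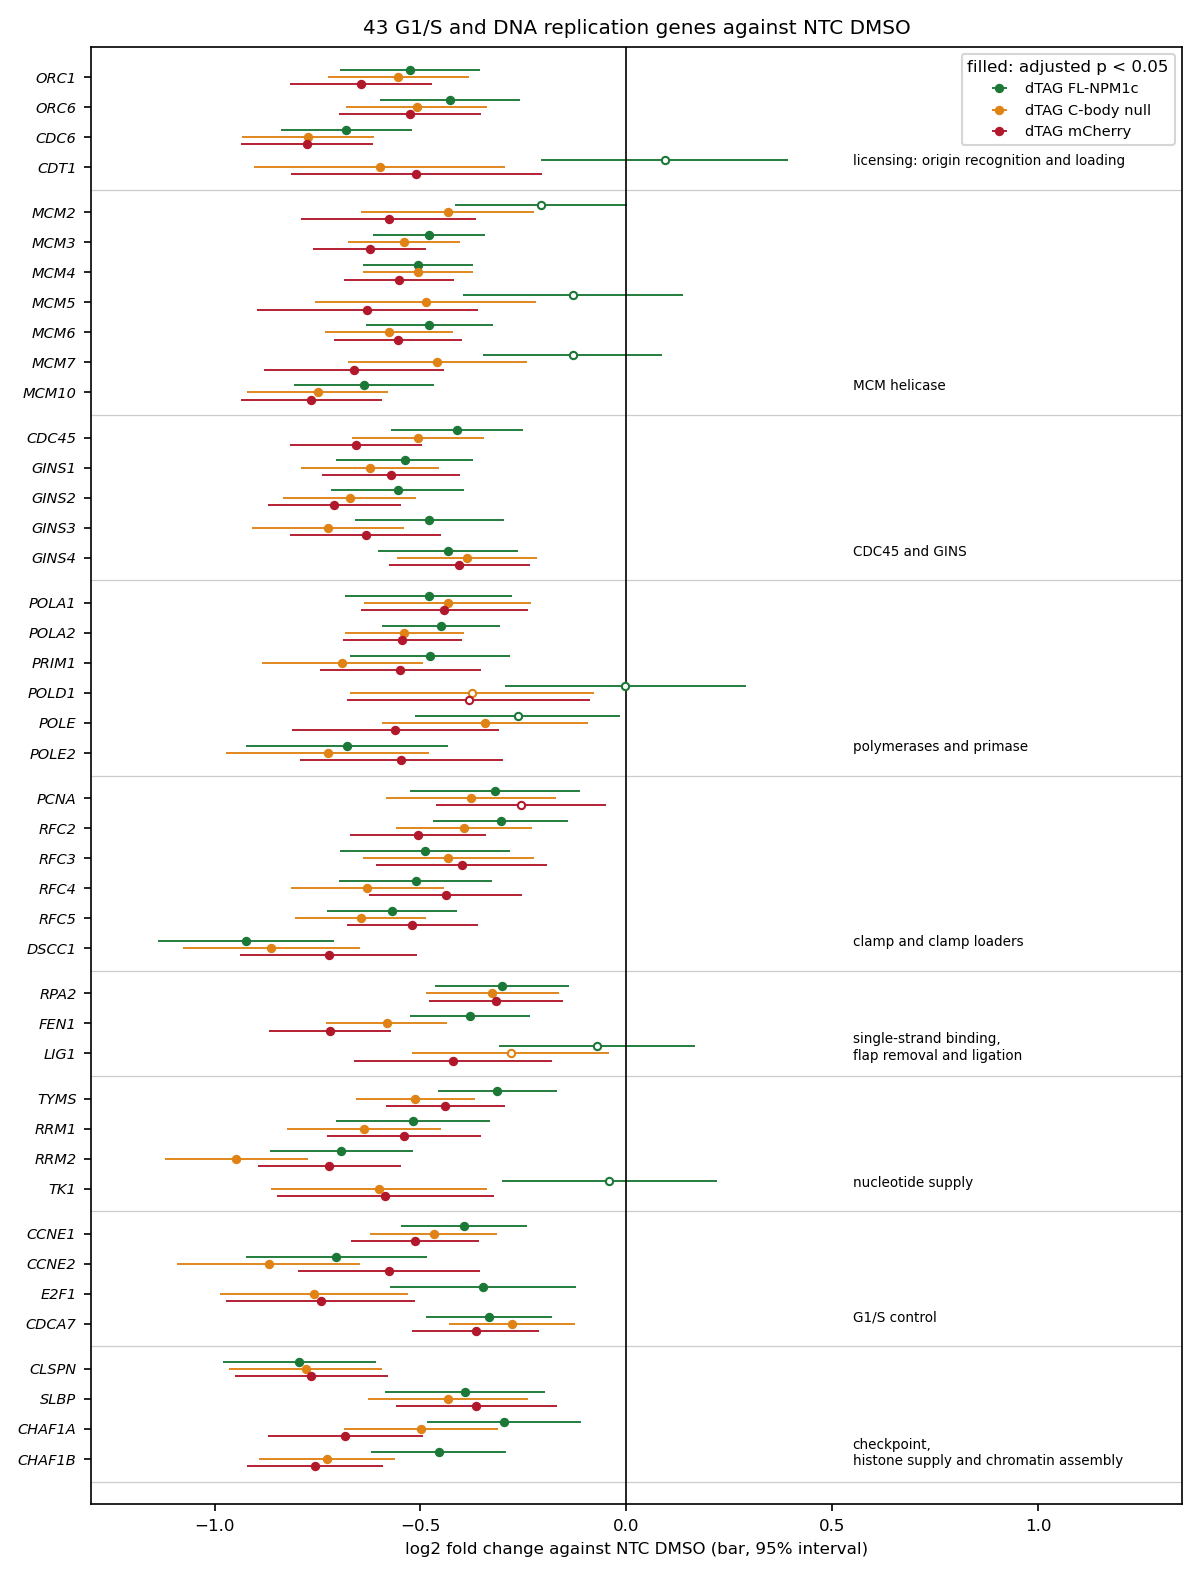
Each row is a gene, ordered by replication step, and the horizontal axis is the log2 fold change against NTC DMSO with its 95% interval, for dTAG FL-NPM1c (green), dTAG C-body null (orange) and dTAG mCherry (red). Filled points passed the test. Nearly all points lie left of 0, and the green points of CDT1, MCM2, MCM5, MCM7, POLD1, LIG1 and TK1 stand near 0, where with the GC offset (not drawn) all of these but CDT1 passed as lower.

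Between the add-backs, a subset of the module rose with full-length NPM1c and no member passed with C-body null. In dTAG FL-NPM1c against dTAG mCherry 11 of 43 genes rose and 0 fell (7.58% of all genes tested rose and 7.95% fell): CDT1, TK1, MCM7, MCM5, E2F1, CHAF1A, MCM2, LIG1, FEN1, CHAF1B and CDC45. All 11 also fell in dTAG mCherry against NTC DMSO, as did 41 of the 43 members. Both comparisons use the same mCherry libraries, so this overlap does not set the 11 apart. The median over the 43 was 0.10, beside -0.002 over all genes, and all 3 libraries of dTAG FL-NPM1c lay above all 3 of dTAG mCherry for 18 genes (16.4% of all genes did so). In dTAG C-body null against dTAG mCherry 0 of 43 passed in edgeR (0.216% of all genes rose and 0.378% fell) and 0 in DESeq2, with 0 higher and 3 lower (RFC4, RRM2 and CCNE2) at an unadjusted p under 0.05. For 3 genes all C-body null libraries lay above those of dTAG mCherry (7.36% of all genes) and for 3 below (7.6%). The 95% intervals of these 43 differences reached from -0.52 to 0.47 on the log2 scale, and this comparison shares the mCherry libraries with the one before. Set directly against dTAG C-body null, 4 of 43 genes rose in dTAG FL-NPM1c and 0 fell (4.82% of all genes rose and 4.86% fell): CDT1, TK1, E2F1 and CHAF1B. All 3 full-length libraries lay above all 3 C-body null libraries for 23 genes (18.1% of all genes did so), and the median was 0.10, beside 0.005 over all genes. The monocyte and macrophage list had 4 of 12 genes lower in dTAG FL-NPM1c than in dTAG mCherry and 7 of 12 lower than in dTAG C-body null, and its part in these results was not tested.

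Without a GC offset, the genes called higher with full-length NPM1c than with mCherry all lay among the members with GC-rich transcripts. All 11 calls against dTAG mCherry fell among the 22 genes at or above the median GC of 48.5%, and none among the other 21. Across the 43 genes, Pearson's r between transcript GC and the log2 fold change was 0.87 for dTAG FL-NPM1c minus dTAG mCherry, against 0.37 over the 20621 tested genes with a transcript sequence. It was 0.70 for dTAG FL-NPM1c minus dTAG C-body null and -0.06 for dTAG mCherry minus NTC DMSO. Replicates of 1 group also differed along this axis, with r of -0.86 over the 43 genes for dTAG mCherry replicate 3 minus replicate 2 and 0.92 for NTC DMSO replicate 3 minus replicate 2. These are correlations across genes of the same libraries, and genes are not independent replicates.

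A fit with a GC offset for each library was added after this was seen. All 11 genes called against dTAG mCherry passed in it, 10 of them with a smaller difference (CHAF1B was the exception), as did 10 more (ORC6, CDC6, MCM6, MCM10, GINS1, GINS2, GINS3, PRIM1, RRM1 and CDCA7), which made 21 higher and 0 lower (9.7% of all genes rose and 9.99% fell in that fit), with a median of 0.15. Of the 10 more, only GINS2 lay at or above the median transcript GC of the module. With the offset CDT1 was 0.33 above dTAG mCherry on the log2 scale, MCM7 0.37, TK1 0.29 and E2F1 0.15. Against dTAG C-body null 17 genes were higher and 0 lower (8.53% of all genes), the 4 above included, and C-body null against mCherry gave 0 in either direction (1.28% of all genes rose and 1.22% fell). Without the GC offset, the count of 11 was 4 without dTAG FL-NPM1c replicate 1 or replicate 2 and 6 without dTAG mCherry replicate 1 or replicate 3, and MCM7, TK1 and FEN1 passed whichever library was left out. Over all genes the count also dropped, from 1823 of 24064 to 697 of 24572 and 717 of 24510 without those full-length libraries. It was 809 of 24561 and 817 of 24564 without those mCherry libraries. The count of 4 against C-body null was 2 without replicate 1 or replicate 2 of either group, where CDT1 and TK1 passed each time. The count over all genes there was 1160 of 24064 with all libraries and 612 to 699 in those fits. Without dTAG mCherry replicate 2, C-body null against mCherry gave 2 higher (MCM7 and POLE) and 3 lower (POLE2, RFC4 and RRM2). Calls over all genes increased as well, to 761 higher and 638 lower of 24565, from 52 and 91 of 24064.

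A fit without both dTAG mCherry replicate 2 and NTC DMSO replicate 3 was also added after they were seen to differ from their groups. It kept the fall against NTC DMSO but not the absence of lower calls. Members that fell against NTC DMSO numbered 36 in dTAG FL-NPM1c (19.9% of all genes fell in that fit), 41 in dTAG C-body null (17%) and 42 in dTAG mCherry (9.77%). Against dTAG mCherry, dTAG FL-NPM1c had 15 genes higher (15.4% of all genes) and 6 lower (18.7%), the last being POLE2, PCNA, RFC4, DSCC1, CCNE2 and SLBP. In dTAG C-body null against dTAG mCherry 7 genes were higher (7.48%) and 9 lower (8.68%). Relative to the mCherry library left out, the other 2 were low for GC-rich members, with r of -0.62 (replicate 1) and -0.86 (replicate 3) over the 43 genes, and the part of this in the counts was not tested.

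**Figure D2:**
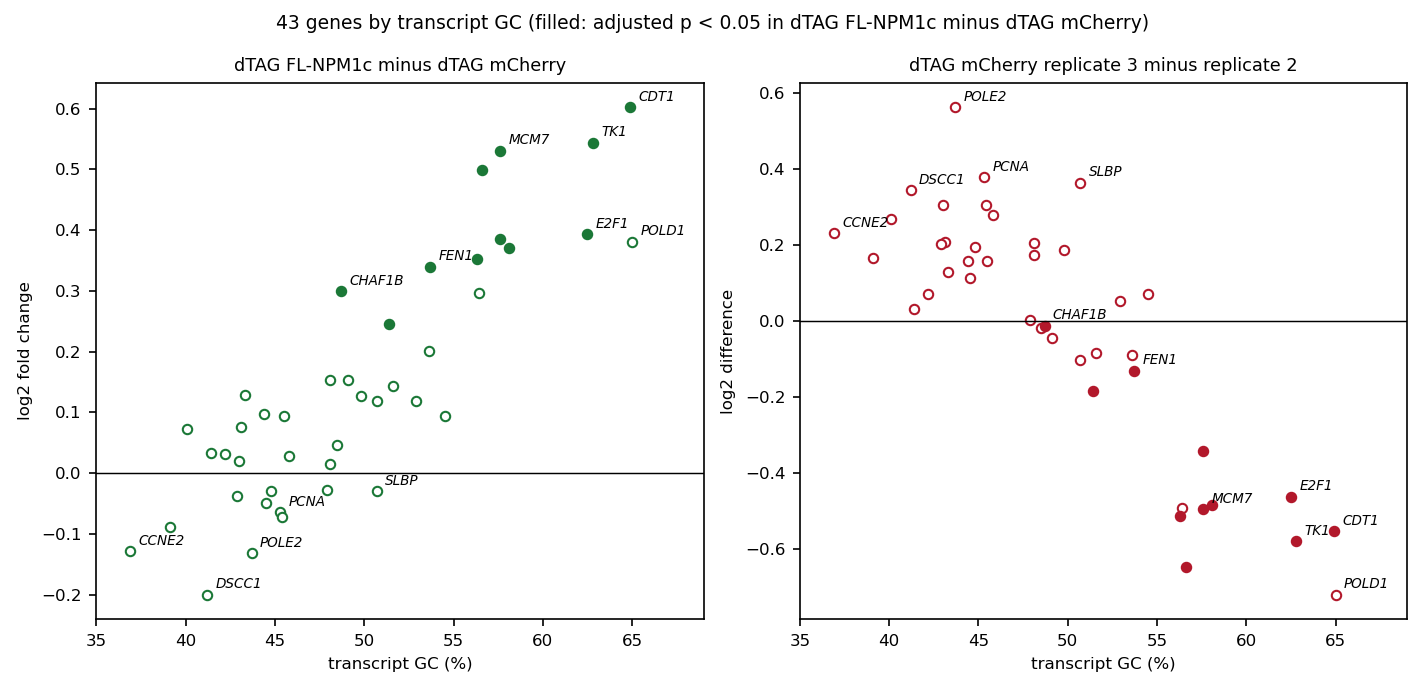
Each point is 1 of the 43 genes, plotted by transcript GC (%) against the log2 fold change of dTAG FL-NPM1c minus dTAG mCherry (left) and the log2 difference of dTAG mCherry replicate 3 minus replicate 2 (right); filled points are the 11 genes called in the first. GC-rich CDT1, TK1 and MCM7 are highest at left and far below 0 at right, while GC-poor CCNE2 and DSCC1 lie on the other side of both.

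Licensing genes fell by about as much as the module. All 4 (ORC1, ORC6, CDC6 and CDT1) fell in dTAG mCherry against NTC DMSO, with a median log2 fold change of -0.59. CDC6, the ATPase that works with the origin recognition complex to load the helicase, had 69.8, 67.9 and 69.8 CPM in dTAG FL-NPM1c, 68.1, 64.5 and 62.0 CPM in dTAG C-body null and 64.8, 61.2 and 68.4 CPM in dTAG mCherry, against 111, 117 and 104 CPM in NTC DMSO. All 9 dTAG libraries lay below all 3 NTC DMSO libraries, and the dTAG groups overlapped one another. Its log2 fold change against NTC DMSO was -0.68 ± 0.08 in dTAG FL-NPM1c (edgeR, adjusted p = 7.2e-06) and -0.77 ± 0.08 in dTAG C-body null (SE; adjusted p = 9.2e-07). In dTAG mCherry it was -0.78 ± 0.08 (edgeR, adjusted p = 1.2e-06), the largest fall of any member there. With the GC offset CDC6 was higher in dTAG FL-NPM1c, by 0.18 than in dTAG mCherry (edgeR, adjusted p = 0.0052) and by 0.13 than in dTAG C-body null (0.039).

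CDT1, the loader that brings MCM proteins to origins and is destroyed in S phase, differed from the other licensing genes without the GC offset. It had 31.0, 32.4 and 26.5 CPM in dTAG FL-NPM1c, 19.0, 16.1 and 20.5 CPM in dTAG C-body null, 21.6, 22.3 and 15.03 CPM in dTAG mCherry and 29.3, 23.7 and 31.3 CPM in NTC DMSO. Full-length libraries overlapped those of NTC DMSO and lay above both other dTAG groups. The difference was 0.60 ± 0.14 against dTAG mCherry (SE; edgeR, adjusted p = 0.011), 0.69 ± 0.14 against dTAG C-body null (adjusted p = 0.0048) and 0.09 ± 0.14 against NTC DMSO (adjusted p = 0.66). Without dTAG FL-NPM1c replicate 2 the first no longer passed (adjusted p = 0.055). The fall in dTAG mCherry, -0.51 ± 0.14 (adjusted p = 0.017), was lost without NTC DMSO replicate 1 (0.055), NTC DMSO replicate 3 (0.058) or dTAG mCherry replicate 3 (0.058). With the GC offset CDT1 was 0.33 above dTAG mCherry (edgeR, adjusted p = 0.0018) and 0.46 above dTAG C-body null (8.8e-05). In that fit CDC6 and ORC6 were also called above dTAG mCherry, ORC6 by 0.21 (0.0082).

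The MCM helicase genes fell together in dTAG mCherry, all 7 of 7, with a median of -0.62. MCM7, a subunit of the MCM2-7 hexamer, had 500.3, 491 and 487 CPM in dTAG FL-NPM1c, 373, 395.5 and 407.5 CPM in dTAG C-body null, 332, 405 and 287 CPM in dTAG mCherry and 505, 511 and 602 CPM in NTC DMSO. Full-length libraries lay above every library of both other dTAG groups and just below those of NTC DMSO. Its difference was 0.53 ± 0.10 against dTAG mCherry (SE; edgeR, adjusted p = 0.003), 0.33 ± 0.10 against dTAG C-body null (adjusted p = 0.053) and -0.13 ± 0.10 against NTC DMSO (adjusted p = 0.37). With the GC offset the last 2 were 0.26 (adjusted p = 0.00074) and -0.29 (0.00017), and both passed, the first also in DESeq2 (0.038). MCM5, another hexamer subunit, gave 0.50 ± 0.13 against dTAG mCherry (adjusted p = 0.016), and MCM2 0.37 (adjusted p = 0.021). Both calls were lost without dTAG FL-NPM1c replicate 1 or 2 or dTAG mCherry replicate 3 (0.052 to 0.089), and that of MCM2 also without dTAG mCherry replicate 1 (0.073).

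For MCM4 and MCM10 no difference among the dTAG groups passed, except that with the GC offset MCM10 was higher in dTAG FL-NPM1c by 0.25 than in dTAG mCherry (adjusted p = 0.0024) and by 0.16 than in dTAG C-body null (0.04). MCM4, a hexamer subunit, had 360.1, 357 and 370.5 CPM in dTAG FL-NPM1c, 366, 369.6 and 351.5 CPM in dTAG C-body null and 334, 362 and 357 CPM in dTAG mCherry, against 504, 522 and 518 CPM in NTC DMSO. MCM10, which is not part of the hexamer and helps to activate it, had 82.9, 78.9 and 86.6 CPM in dTAG FL-NPM1c, 75.9, 81.4 and 72.5 CPM in dTAG C-body null and 71.2, 74.6 and 81.6 CPM in dTAG mCherry, against 129, 136.5 and 120.3 CPM in NTC DMSO. For both genes every dTAG library lay below every NTC DMSO library. The differences of dTAG mCherry from NTC DMSO were -0.55 ± 0.06 for MCM4 (SE; edgeR, adjusted p = 7.4e-06) and -0.77 ± 0.08 for MCM10 (adjusted p = 3.1e-06). With full-length NPM1c, MCM4 differed from dTAG mCherry by 0.05 (95% interval -0.09 to 0.18) and MCM10 by 0.13 (-0.04 to 0.30).

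**Figure D3:**
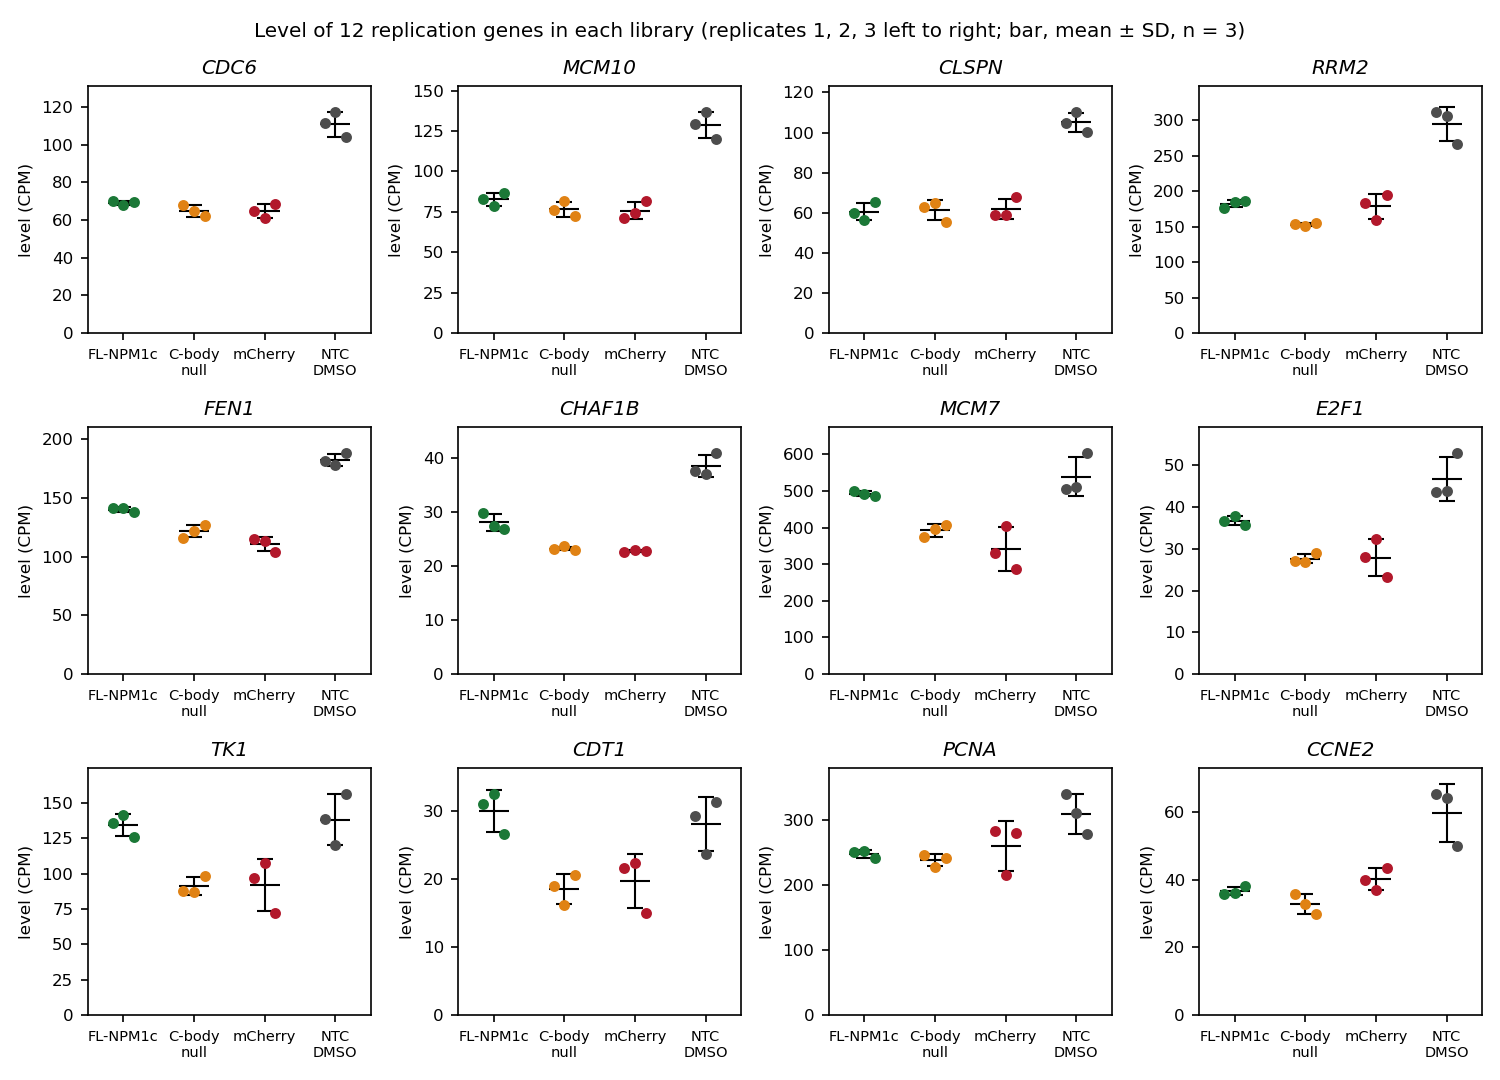
Level in CPM (axes start at 0) of 12 genes in each library, with the groups from left to right dTAG FL-NPM1c, dTAG C-body null, dTAG mCherry and NTC DMSO; points are replicates 1 to 3 and bars the mean ± SD (n = 3). CDC6, MCM10 and CLSPN are low in all 3 dTAG groups, while MCM7, TK1 and CDT1 are higher in dTAG FL-NPM1c than in the other dTAG groups.

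CDC45 and the GINS subunits, which complete the active helicase, all fell in each dTAG group against NTC DMSO, 5 of 5 in each. GINS2 had 43.7, 44.2 and 41.6 CPM in dTAG FL-NPM1c, 37.0, 39.3 and 42.99 CPM in dTAG C-body null and 39.8, 38.9 and 37.7 CPM in dTAG mCherry, against 62.3, 63.6 and 64.3 CPM in NTC DMSO. It showed the largest fall of the step, -0.71 ± 0.08 in dTAG mCherry (SE; edgeR, adjusted p = 3.8e-06). GINS4 showed the smallest, -0.41 ± 0.08 (adjusted p = 0.0015), with 22.1, 21.6 and 24.1 CPM in dTAG FL-NPM1c, 22.8, 24.1 and 23.0 CPM in dTAG C-body null, 22.3, 23.4 and 23.4 CPM in dTAG mCherry and 29.1, 32.2 and 30.2 CPM in NTC DMSO. Both genes kept NTC DMSO apart from all 9 dTAG libraries. CDC45 was the member of this step called in dTAG FL-NPM1c against dTAG mCherry, by 0.25 ± 0.08 (adjusted p = 0.038), and it did not pass when any library but dTAG mCherry replicate 2 was left out. With the GC offset 4 of 5 passed there as higher (9.7% of all genes rose in that fit): CDC45, GINS1, GINS2 and GINS3. GINS4 exons share 23.6% of their bases with genes on the opposite strand.

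Of the polymerases and primase, 5 of 6 fell in dTAG mCherry against NTC DMSO, with a median of -0.55. With all libraries and no GC offset, 0 of 6 passed between the add-backs and mCherry. With the GC offset PRIM1 was higher in dTAG FL-NPM1c than in dTAG mCherry, by 0.24 (edgeR, adjusted p = 0.0026). Without dTAG mCherry replicate 2, POLE passed as higher (0.0019) and POLE2 as lower (0.027) in the same comparison. POLD1, the catalytic subunit of polymerase delta, had 53.3, 56.5 and 50.3 CPM in dTAG FL-NPM1c, 40.0, 37.8 and 45.8 CPM in dTAG C-body null, 44.2, 48.9 and 29.5 CPM in dTAG mCherry and 54.8, 47.8 and 57.7 CPM in NTC DMSO. Its dTAG mCherry libraries spread widely and overlapped NTC DMSO. The difference of dTAG mCherry from NTC DMSO, -0.38 ± 0.14, did not pass (SE; edgeR, adjusted p = 0.06), nor did that of dTAG FL-NPM1c from dTAG mCherry, 0.38 ± 0.14 (adjusted p = 0.075), although full-length libraries all lay above mCherry. The first passed with the GC offset (-0.38, adjusted p = 2.3e-05), in DESeq2 (0.028) and without NTC DMSO replicate 2 (0.044) or dTAG mCherry replicate 2 (0.0089). The second was 0.12 with the GC offset (0.12), and passed in DESeq2 (0.048) and without dTAG mCherry replicate 2 (0.0097). POLE, the catalytic subunit of polymerase epsilon, had 109, 109 and 123 CPM in dTAG FL-NPM1c, 103, 111 and 109 CPM in dTAG C-body null, 81.8, 114 and 81.2 CPM in dTAG mCherry and 126, 128 and 155.5 CPM in NTC DMSO. It fell in dTAG mCherry, by 0.56 on the log2 scale (adjusted p = 0.0024), and gave -0.26 in dTAG FL-NPM1c (adjusted p = 0.11). The step's other genes, POLA1, POLA2, PRIM1 and POLE2, fell in all 3 dTAG groups. POLA2 shares 35.1% of its exon bases with a gene on its own strand, and PRIM1 16.2%.

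The clamp and its loaders had 5 of 6 genes lower in dTAG mCherry than in NTC DMSO and were the step with the lowest median for full-length NPM1c against mCherry, with 0 of 6 called and a median of -0.07 (0 of 6 and 0.05 with the GC offset). PCNA, the sliding clamp, had 250.3, 252 and 241 CPM in dTAG FL-NPM1c, 245.5, 228 and 240.5 CPM in dTAG C-body null, 282.5, 215 and 279 CPM in dTAG mCherry and 339, 309.9 and 278 CPM in NTC DMSO. It fell in dTAG FL-NPM1c (-0.32 ± 0.10, edgeR, adjusted p = 0.023) and dTAG C-body null (-0.38 ± 0.10, adjusted p = 0.0085). The full-length call was lost without any 1 library other than NTC DMSO replicate 3 (adjusted p = 0.054 to 0.12), and the C-body null call without NTC DMSO replicate 1 (0.055) or dTAG C-body null replicate 2 (0.053). The mCherry group overlapped NTC DMSO and gave -0.26 ± 0.10 (SE; edgeR, adjusted p = 0.072). That last value passed with the GC offset (adjusted p = 0.0067), in DESeq2 (0.043) and without NTC DMSO replicate 3 (0.026) or dTAG mCherry replicate 3 (0.043). DSCC1, part of an alternative clamp loader, had 19.3, 20.9 and 19.8 CPM in dTAG FL-NPM1c, 21.8, 20.5 and 20.4 CPM in dTAG C-body null and 24.0, 19.8 and 25.3 CPM in dTAG mCherry, against 40.6, 39.6 and 33.7 CPM in NTC DMSO. It fell by 0.92 ± 0.10 on the log2 scale in dTAG FL-NPM1c (SE; edgeR, adjusted p = 6.4e-06), the largest fall of any member there, and by 0.72 in dTAG mCherry (adjusted p = 6.2e-05). The 4 RFC subunits among the members, RFC2, RFC3, RFC4 and RFC5, fell in every dTAG group.

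Of RPA2, FEN1 and LIG1, all 3 fell in dTAG mCherry, and FEN1 and LIG1 rose with full-length NPM1c. The fall of LIG1 was lost without NTC DMSO replicate 3 (adjusted p = 0.053) or with both groups fitted alone (0.054), as was that of RPA2 with both groups fitted alone (0.08). FEN1, the nuclease that removes flaps from Okazaki fragments, had 141, 141 and 138 CPM in dTAG FL-NPM1c, 116, 122 and 127 CPM in dTAG C-body null, 115, 113 and 104 CPM in dTAG mCherry and 181, 177.5 and 188 CPM in NTC DMSO. The 4 groups formed 4 levels with no overlap. The difference of dTAG FL-NPM1c was 0.34 ± 0.07 from dTAG mCherry (SE; edgeR, adjusted p = 0.0044), 0.20 ± 0.07 from dTAG C-body null (adjusted p = 0.079) and -0.38 ± 0.07 from NTC DMSO (adjusted p = 0.00081). That from dTAG C-body null passed with the GC offset (0.19, adjusted p = 0.0075), in DESeq2 (0.043) and with both groups fitted alone (0.016). RPA2, a subunit of the single-strand binding complex, had 92.0, 91.3 and 87.5 CPM in dTAG FL-NPM1c, 89.0, 87.0 and 90.4 CPM in dTAG C-body null and 94.3, 80.6 and 93.1 CPM in dTAG mCherry, against 117, 112 and 105 CPM in NTC DMSO. It fell in each dTAG group, with -0.30 in dTAG FL-NPM1c, -0.33 in dTAG C-body null and -0.32 in dTAG mCherry. LIG1, the ligase that joins the fragments, was called at 0.35 ± 0.11 above dTAG mCherry (adjusted p = 0.046), which of the 6 fits that each left out 1 library passed in that without dTAG mCherry replicate 2.

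Nucleotide supply genes fell in dTAG mCherry, 4 of 4, and all 4 had their full-length libraries above every C-body null library. Of these differences from dTAG C-body null 1 was called, that of TK1, and with the GC offset all 4 were (8.53% of all genes rose in that fit). TK1, which salvages thymidine in S phase, had 136, 141 and 126 CPM in dTAG FL-NPM1c, 87.7, 86.8 and 98.5 CPM in dTAG C-body null, 96.6, 107 and 71.8 CPM in dTAG mCherry and 138, 119.9 and 156 CPM in NTC DMSO. Full-length libraries overlapped NTC DMSO and lay above both other dTAG groups. It rose by 0.54 ± 0.12 against dTAG mCherry (SE; edgeR, adjusted p = 0.0089) and 0.56 ± 0.12 against dTAG C-body null (adjusted p = 0.0077), and differed from NTC DMSO by -0.04 ± 0.12 (adjusted p = 0.84), which with the GC offset was -0.28 and passed (adjusted p = 0.00011). RRM2, the regulated subunit of ribonucleotide reductase, had 177, 184 and 187 CPM in dTAG FL-NPM1c, 154, 150.4 and 154.5 CPM in dTAG C-body null, 183, 159.7 and 194 CPM in dTAG mCherry and 311, 307 and 267 CPM in NTC DMSO. It was lowest in dTAG C-body null, below both other dTAG groups with no overlap. The difference of dTAG C-body null from NTC DMSO was -0.95 ± 0.08 (adjusted p = 2.3e-07), and from dTAG mCherry -0.23 ± 0.08, which did not pass (adjusted p = 0.3). TYMS, which makes thymidylate, had 259, 257 and 258 CPM in dTAG FL-NPM1c, 226, 221 and 228 CPM in dTAG C-body null, 243, 218 and 249 CPM in dTAG mCherry and 327, 327 and 307 CPM in NTC DMSO. Its fall in dTAG mCherry was 0.44 ± 0.07 on the log2 scale (adjusted p = 0.00017). TYMS shares 46.6% of its exon bases with genes on the opposite strand and RRM2 20.2% with a gene on its own, and how reads were assigned by strand is not given in the sources used here.

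The G1/S control genes all fell in each dTAG group, 4 of 4. E2F1, the transcription factor that drives many of the others, had 36.7, 37.8 and 35.8 CPM in dTAG FL-NPM1c, 27.1, 26.9 and 28.96 CPM in dTAG C-body null, 28.1, 32.3 and 23.3 CPM in dTAG mCherry and 43.7, 43.9 and 52.9 CPM in NTC DMSO. Full-length libraries formed a level of their own, above the other dTAG groups and below NTC DMSO. The difference of dTAG FL-NPM1c was 0.39 ± 0.11 from dTAG mCherry (SE; edgeR, adjusted p = 0.023), 0.41 ± 0.11 from dTAG C-body null (adjusted p = 0.022) and -0.35 ± 0.11 from NTC DMSO (adjusted p = 0.023). The first was lost without dTAG FL-NPM1c replicate 1 (0.078) or 2 (0.084) or dTAG mCherry replicate 1 (0.066) or 3 (0.096), and the second without replicate 1 or 2 of either group (0.073 to 0.11). The value from NTC DMSO was lost without NTC DMSO replicate 3 (0.08) or dTAG FL-NPM1c replicate 2 (0.054) or 3 (0.067). With the GC offset the difference was 0.15 from dTAG mCherry (adjusted p = 0.043), 0.23 from dTAG C-body null (0.003) and -0.58 from NTC DMSO (1.1e-07).

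The cyclins E, which activate CDK2 at the G1/S transition, both fell in every dTAG group. CCNE1 had 34.0, 32.8 and 32.0 CPM in dTAG FL-NPM1c, 31.6, 31.7 and 30.7 CPM in dTAG C-body null, 31.1, 29.4 and 30.5 CPM in dTAG mCherry and 42.2, 42.7 and 45.0 CPM in NTC DMSO. CCNE2 had 35.8, 36.1 and 38.1 CPM in dTAG FL-NPM1c, 35.6, 32.8 and 29.7 CPM in dTAG C-body null, 40.0, 36.9 and 43.4 CPM in dTAG mCherry and 65.2, 64.0 and 49.97 CPM in NTC DMSO. Both were highest in NTC DMSO, with no overlap. CCNE1 differed from NTC DMSO by -0.39 in dTAG FL-NPM1c and -0.51 in dTAG mCherry, and CCNE2 by -0.70 in dTAG FL-NPM1c, -0.87 in dTAG C-body null and -0.58 in dTAG mCherry. With all libraries and no GC offset, no difference among the dTAG groups passed for either gene. With the GC offset CCNE2 was higher in dTAG FL-NPM1c than in dTAG C-body null, by 0.23 (edgeR, adjusted p = 0.0034). In the fit without both dTAG mCherry replicate 2 and NTC DMSO replicate 3, CCNE2 was called lower than in dTAG mCherry in both add-back groups. CDCA7, a chromatin protein induced by E2F and MYC, had 89.6, 96.0 and 100 CPM in dTAG FL-NPM1c, 103, 100.5 and 93.6 CPM in dTAG C-body null and 92.1, 91.3 and 95.9 CPM in dTAG mCherry, against 123, 122 and 114 CPM in NTC DMSO. It fell by 0.37 ± 0.07 on the log2 scale in dTAG mCherry (SE; edgeR, adjusted p = 0.0015), the smallest fall of this step. CCNE2 shares 37.1% of its exon bases with genes on the opposite strand.

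Checkpoint and chromatin genes fell in every dTAG group, 4 of 4. CLSPN, the adaptor through which ATR activates CHK1, had 59.9, 56.6 and 65.2 CPM in dTAG FL-NPM1c, 63.0, 65.0 and 55.5 CPM in dTAG C-body null and 58.7, 59.1 and 67.7 CPM in dTAG mCherry, against 105, 110.0 and 100.3 CPM in NTC DMSO. Its dTAG groups overlapped, with a difference of -0.03 (95% interval -0.21 to 0.16) between dTAG FL-NPM1c and dTAG mCherry. SLBP, which binds the stem-loop of histone mRNAs, had 106, 104.5 and 106 CPM in dTAG FL-NPM1c, 107, 100.3 and 101 CPM in dTAG C-body null and 112, 92.3 and 119 CPM in dTAG mCherry, against 149, 143 and 124 CPM in NTC DMSO. The fall in dTAG mCherry was 0.77 ± 0.09 on the log2 scale for CLSPN (SE; edgeR, adjusted p = 7.6e-06) and 0.36 ± 0.09 for SLBP (adjusted p = 0.0088), and the SLBP call was lost without NTC DMSO replicate 2 (0.057).

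CHAF1A and CHAF1B, subunits of the assembly factor that places histones on new DNA, rose with full-length NPM1c. CHAF1B had 29.8, 27.5 and 26.9 CPM in dTAG FL-NPM1c, 23.1, 23.6 and 23.0 CPM in dTAG C-body null, 22.7, 23.0 and 22.8 CPM in dTAG mCherry and 37.5, 37.1 and 40.9 CPM in NTC DMSO. Replicates were tight, and full-length libraries stood between NTC DMSO and the other dTAG groups. The difference was 0.30 ± 0.08 from dTAG mCherry (SE; edgeR, adjusted p = 0.018) and 0.27 ± 0.08 from dTAG C-body null (adjusted p = 0.037). CHAF1B has a transcript GC of 48.7%, near the median of the module, and with the GC offset these were 0.33 and 0.29. The second did not pass without any 1 of the 6 libraries compared (adjusted p = 0.054 to 0.24), nor the first without dTAG FL-NPM1c replicate 1 (0.15) or 2 (0.054) or dTAG mCherry replicate 1 (0.09). CHAF1A rose by 0.39 against dTAG mCherry (adjusted p = 0.0092), which was lost without dTAG FL-NPM1c replicate 1 (0.057).

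**Figure D4:**
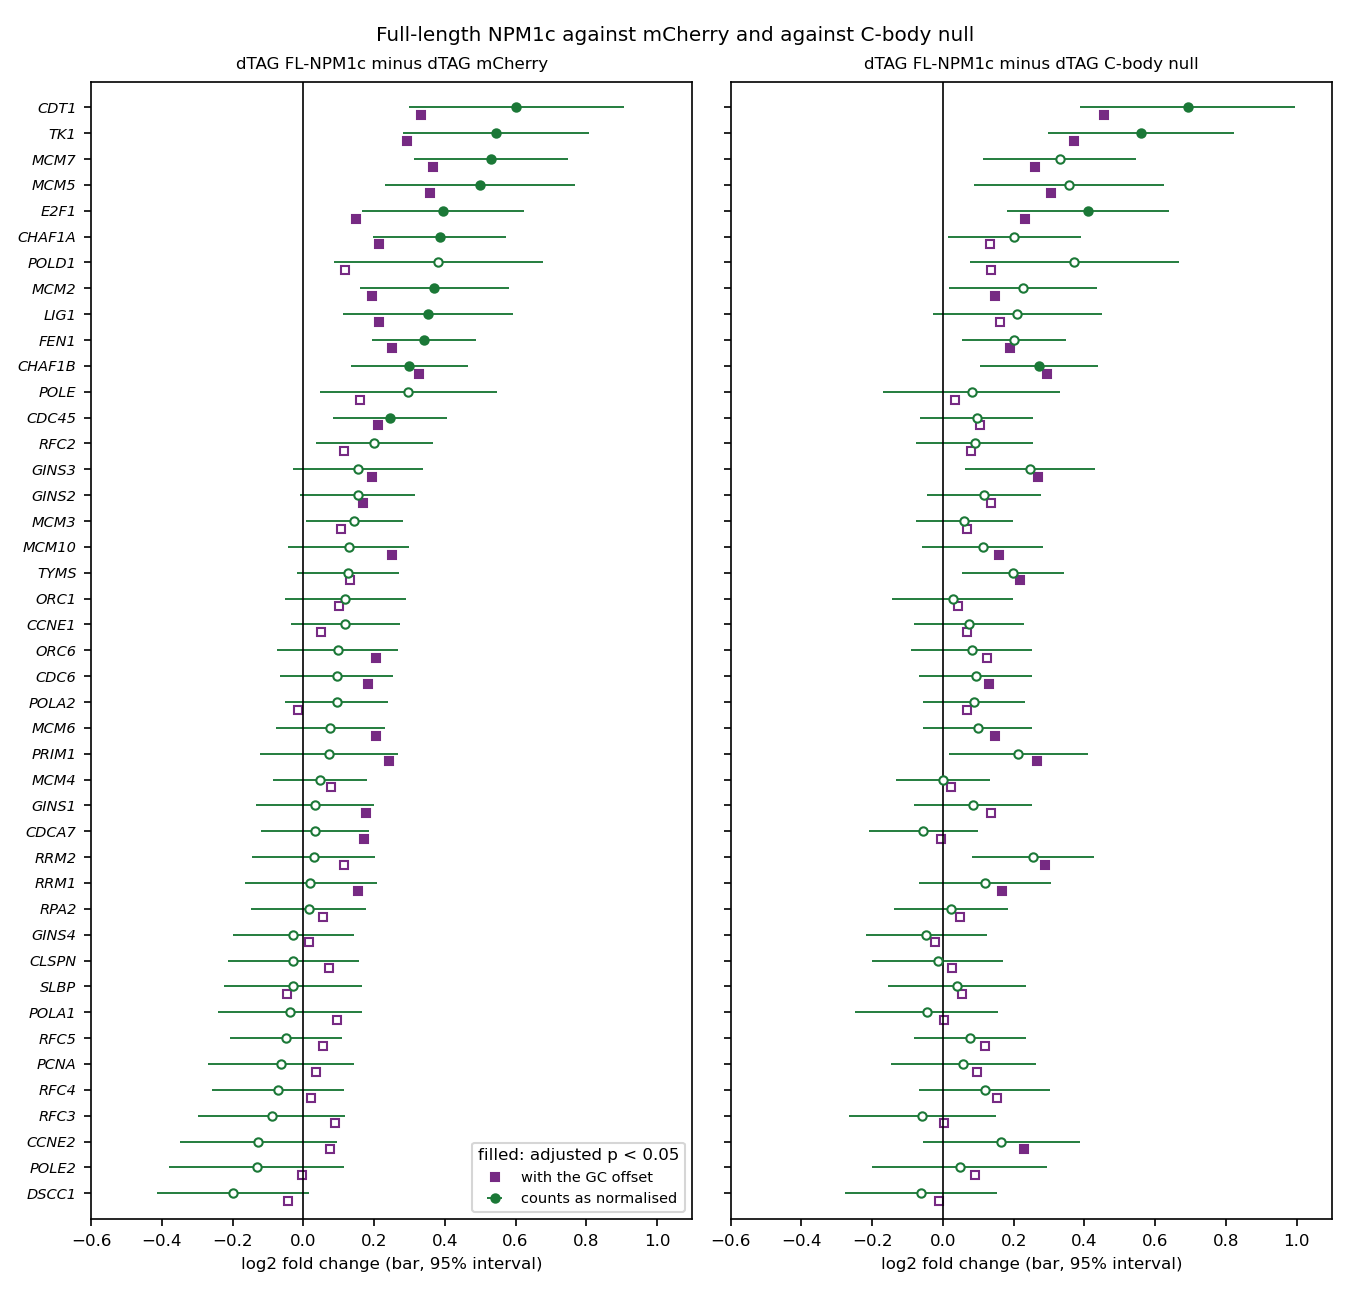
Each row is a gene, ordered by dTAG FL-NPM1c minus dTAG mCherry (left); the right panel shows dTAG FL-NPM1c minus dTAG C-body null. Circles are log2 fold changes with 95% intervals, squares the same with the GC offset, and filled symbols passed the test. CDT1 and TK1 lead both panels, and the offset moves the top genes toward 0 while many lower ones move up.

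Per kilobase of exon, the genes of the module differ widely in level. In NTC DMSO, PCNA was highest at 210.0 CPM per kb, followed by TYMS at 129.8 and MCM7 at 123. The MCM2-7 subunits ran from 24.8 (MCM5) to 123 CPM per kb (MCM7), and the GINS subunits from 5.57 (GINS4) to 19.4 (GINS2). GINS4 was the lowest member and CDT1, at 8.42 CPM per kb, lay in the lowest group with POLE at 8.22 and LIG1 at 8.595. The exon length counts every annotated exon, so genes with many isoforms appear lower.

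In dTAG mCherry, other replication genes moved less uniformly than the members, while other E2F targets and G1/S genes fell about as uniformly. Members and lists were chosen with earlier results of these data known, and the part of that choice in this contrast was not tested. Of 38 other replication genes, 21 fell and 1 rose in dTAG mCherry against NTC DMSO (9.69% and 12.9% of all genes), with a median of -0.34. POLD4, a small subunit of polymerase delta, was the one that rose (0.66 ± 0.12; SE; edgeR, adjusted p = 0.0008), and TICRR, which helps CDC45 load, fell most, by 0.62 on the log2 scale. Of 17 other E2F targets and G1/S genes 16 fell and 0 rose (median -0.56), among them MYBL2, a transcription factor of the S and G2 phases (-0.67 ± 0.12; SE; edgeR, adjusted p = 0.00078). Against dTAG mCherry, full-length NPM1c was higher for 3 of the 38 (RNASEH2A, TICRR and TIMELESS) and lower for 1 (ASF1A), beside 7.58% and 7.95% of all genes, and higher for 3 of the 17, MYBL2 by 0.43, PKMYT1 by 0.43 and UHRF1 by 0.29.

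Nucleotide genes outside the module included 2 that rose where RRM2 and TYMS fell. Of 12, 5 fell and 2 rose in dTAG mCherry against NTC DMSO, beside 9.69% and 12.9% of all genes. SAMHD1, which breaks down deoxynucleotides and is high in mature myeloid cells, had 242, 245 and 260.1 CPM in dTAG FL-NPM1c, 342, 369 and 339 CPM in dTAG C-body null, 291, 297 and 297 CPM in dTAG mCherry and 147, 148.5 and 139 CPM in NTC DMSO. The 4 groups did not overlap. It rose in dTAG mCherry by 1.03 ± 0.07 (SE; edgeR, adjusted p = 1.3e-08), and dTAG FL-NPM1c was below dTAG mCherry by 0.24 (adjusted p = 0.022) and below dTAG C-body null by 0.49 (adjusted p = 0.00012). RRM2B, the p53-inducible counterpart of RRM2, rose by 0.78 ± 0.11 in dTAG mCherry against NTC DMSO (adjusted p = 6.1e-05) and was 0.41 lower in dTAG FL-NPM1c than in dTAG mCherry (adjusted p = 0.02).

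Among 16 E2F, DP and RB family genes, 7 fell and 0 rose in dTAG mCherry against NTC DMSO (9.69% of all genes fell and 12.9% rose). E2F8, an atypical E2F that represses targets late in S phase, had 20.6, 21.1 and 22.8 CPM in dTAG FL-NPM1c, 20.8, 19.2 and 19.3 CPM in dTAG C-body null and 19.2, 23.8 and 23.8 CPM in dTAG mCherry, against 43.2, 46.2 and 43.8 CPM in NTC DMSO. Its fall, -0.996 ± 0.093 in dTAG mCherry (SE; edgeR, adjusted p = 8e-07), was larger than that of any member. E2F2 fell by 0.94 ± 0.12 (adjusted p = 2.3e-05) and was 0.48 ± 0.12 higher in dTAG FL-NPM1c than in dTAG C-body null (adjusted p = 0.017). E2F7 (-0.11, adjusted p = 0.5), RB1 (0.14, 0.37) and RBL2 (0.04, 0.76) did not pass in dTAG mCherry against NTC DMSO, and RBL1 fell by 0.32 (0.023). CDKN1A, the p53-induced inhibitor of CDK2, had 236, 217 and 199.6 CPM in dTAG FL-NPM1c, 237.5, 244 and 263 CPM in dTAG C-body null, 246, 259 and 227 CPM in dTAG mCherry and 32.3, 32.4 and 38.2 CPM in NTC DMSO. It rose in all 3 dTAG groups against NTC DMSO, by 2.67 in dTAG FL-NPM1c, 2.86 in dTAG C-body null and 2.83 in dTAG mCherry, and dTAG FL-NPM1c differed from dTAG mCherry by -0.16 ± 0.09 (edgeR, adjusted p = 0.21).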

How the data were processed

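Libraries were TruSeq Stranded mRNA from total RNA, per the labels' protocols, and STAR, featureCounts, DESeq2 and hg38 are named in the submitters' processing notes. No source used here gives the annotation release or strand setting. The authors deposited raw read counts per gene in 1 table. Its columns carry library numbers, matched to the library numbers in the labels. Of its lines, 6 broken ones covering 2 genes were not used, leaving 78930 genes. Symbols came from a gene name table (42177) and GENCODE 29 (15568). All 12 libraries were fitted with 1 mean per group in edgeR 4.0.16 (R 4.3.3): filterByExpr (removing 0.0795% of counts), TMM factors, quasi-likelihood test, Benjamini-Hochberg adjustment over 24064 genes. The SE is the log2 fold change over the square root of F. The fit was tested on simulated data. GC is that of 1 GENCODE 29 transcript per gene, found for 85.7% of tested genes. The members, steps and lists were chosen with earlier results of these data known. The members shown with every library's value were those with the largest and smallest change in dTAG mCherry minus NTC DMSO in each step, plus CDC6, MCM7, PCNA, CCNE1, CCNE2 and E2F1; TK1 and CHAF1B were added after their values were seen, as were UHRF1, RNASEH2A, TIMELESS, TICRR and ASF1A in dTAG FL-NPM1c against dTAG mCherry and the GC offset (loess span 0.3). Alternatives were DESeq2 1.42.0, other scalings, filters and thresholds, a replicate block and left-out libraries. Replicate numbers recur across groups, but of 18 same-numbered pairs 2 correlated above 0.1, so they were not taken as pairs. Pseudogene copies held at most 0.0778% of their parent's counts.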

Additional observations from a re-analysis of the deposited data

How the results depend on the processing

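Across the alternatives run, no call turned its direction. Members called lower against NTC DMSO numbered 32 to 43 over the 3 comparisons and every setting run. For dTAG FL-NPM1c against dTAG mCherry, 11 members were higher with all libraries, 4 at an adjusted p under 0.01, 21 with the GC offset and 4 to 15 with 1 library left out. Over all genes, 1823 of 24064 were higher with all libraries, 2334 with the GC offset and 697 to 3634 with 1 library left out. Lower members numbered 0 with all libraries, 0 to 2 with 1 library left out, and 6 with both dTAG mCherry replicate 2 and NTC DMSO replicate 3 left out, a setting chosen, like the GC offset, after seeing the data. Lower genes of all those tested numbered 1912 of 24064, 904 to 3200, and 4588 of 24484 in the same order. For dTAG C-body null against dTAG mCherry, leaving out both gave 7 higher and 9 lower (7.48% and 8.68% of all genes), and leaving out 1 gave 0 to 2 higher and 0 to 3 lower (22 to 761 and 35 to 638 over all genes). For dTAG FL-NPM1c against dTAG C-body null, 4 were higher with all libraries, 15 when these groups were fitted alone, 7 in DESeq2, 17 with the GC offset, 2 at an adjusted p under 0.01, and 2 to 3 with 1 library left out. Over all genes, 1160 of 24064 were higher with all libraries, 2312 of 23316 fitted alone and 1165 of 21935 in DESeq2. With the GC offset 2052 of 24064 were higher, and with 1 library left out 612 to 925. The cause of these shifts was not tested. With the replicate number as a block, 41 members were called in dTAG mCherry against NTC DMSO, 9 in dTAG FL-NPM1c against dTAG mCherry, 0 in dTAG C-body null against dTAG mCherry, 3 in dTAG FL-NPM1c against dTAG C-body null, and 35 and 40 in dTAG FL-NPM1c and dTAG C-body null against NTC DMSO. Of 24064 genes in that fit, 1840, 2576 and 2499 fell against NTC DMSO in dTAG mCherry, dTAG FL-NPM1c and dTAG C-body null. In dTAG FL-NPM1c 1175 rose against dTAG mCherry and 897 against dTAG C-body null. In dTAG C-body null against dTAG mCherry 32 rose and 54 fell. Same-numbered libraries correlated at -0.31 to 0.16 and others at -0.26 to 0.40, and 0 of the 12 correlated best with its own number. The least of these genes averaged 18.3 CPM in a group, and each group had 3 libraries. The part of depth and of library number in the calls was not tested.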

Other observations

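Replicates of dTAG FL-NPM1c and of dTAG C-body null also differed along transcript GC over the 43 genes. Pearson's r was -0.56 for dTAG FL-NPM1c replicate 3 minus replicate 1 and 0.80 for dTAG C-body null replicate 3 minus replicate 1. Over the 20621 tested genes with a transcript sequence it was -0.33 and 0.46. These are descriptions across genes of the same libraries. Along the same axis the summed level of the 43 genes stayed within 3958 to 4007 CPM in the dTAG mCherry libraries.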
